A study of Mus musculus with 7 samples.

Results

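The clustered core histone genes of the mouse were followed in single oocytes with and without Hira. They were taken as every gene whose symbol begins with Hist1h, Hist2h, Hist3h or Hist4h followed by 2a, 2b, 3 or 4, and linker H1 genes were left out. The symbols were matched to 64 genes of the reference annotation, of which 51 had a row in the table of 37620 genes and 13 were not analysed here. Of these 51 genes 18 encode H2A, 14 H2B, 7 H3 and 12 H4, and 3 are annotated as pseudogenes. RNA was measured in 7 mature mouse oocytes held in the second meiotic metaphase (MII), 1 oocyte per library. The 3 WT oocytes (WT1, WT2 and WT4) carried floxed Hira alleles (Hira f/f) and no Cre. The 4 KO oocytes (KO1 to KO4) carried the same floxed alleles together with Zp3-Cre, a recombinase driven by the zona pellucida 3 promoter, which is active in growing oocytes and not in the cells around them. The labels name no animal, strain or age, so the oocytes of a genotype may share a mother, each genotype counts as 1 sample, and no test of the genotype is given. Every SD below is the spread between single oocytes, and "higher" and "lower" describe these 7 libraries.

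H2A, H2B, H3 and H4 form the protein core of the nucleosome. In dividing cells most of each protein is made during DNA replication from clustered genes without introns, whose mRNAs end in a short hairpin, the histone stem-loop, instead of a poly(A) tail. The stem-loop binding protein Slbp binds that hairpin and is needed for the cutting, export, stability and translation of the mRNA. A growing oocyte does not replicate its DNA, yet it stores histone mRNA and protein for the divisions after fertilisation. Hira encodes a chaperone that places H3.3, a variant made outside replication from genes elsewhere in the genome, and the comparison asks how these transcripts stand in an MII oocyte when that chaperone has been deleted during growth.

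The hairpin is shown first because it sets these transcripts apart from most mRNA, and because the cDNA kit used here primes from poly(A) tails. A hairpin of 6 paired bases that opens with GG, around a loop of 4 bases that opens with TT, was found in the annotated transcripts of 40 of the 64 genes. It was present in 19 of the 27 genes with a value, in 14 of the 24 genes at 0 in every oocyte, and in 3 of the 6 genes that passed the filter on low levels (an FPKM of 1 or more in 3 or more libraries). A hairpin beyond the end of an annotated transcript could not be found. Several transcripts without one are short, such as those of Hist1h2aa (390 bases), Hist1h2ba (384) and Hist1h4k (312), so the counts describe the annotation. Below are 5 members with reads, from the reference transcripts, written 5′ to 3′ with the stem and loop in capitals.
Hist1h4d: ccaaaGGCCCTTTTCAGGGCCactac
Hist1h4c: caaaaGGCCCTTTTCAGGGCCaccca
Hist1h3e: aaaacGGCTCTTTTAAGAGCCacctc
Hist1h2bj: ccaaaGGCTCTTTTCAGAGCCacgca
Hist1h2bk: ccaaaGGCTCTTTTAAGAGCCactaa
The stem followed the protein family. The left arm was GGCTCT in all 29 H2A, H2B and H3 genes with a hairpin, and in the 11 H4 genes it was GGCCCT in 9 and GGTCCT in 2. The annotated transcript of Hist1h4d runs on for 770 bases after the hairpin and that of Hist1h4c for 454, whereas that of Hist1h2bj ends 23 bases after it. The lengths recovered from the authors' FPKM were 393 bases for Hist1h4d and 395 for Hist1h4c, against 1138 and 820 annotated. The models the authors counted were thus shorter than these annotated transcripts. The annotated transcript of Hist1h2bc has 2 exons and no hairpin, and that of Hist1h2aa has 1 exon of 390 bases and no hairpin.

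Levels are the authors' FPKM, which scale the reads of a gene to its length and to the reads of the library. Because FPKM values are whole multiples of what 1 read is worth, reads per gene could be worked out for 18299 of the 18300 genes with a value. An oocyte had between 15403727 and 26045572 reads in genes. Hira itself, with FPKM of 0.312, 0.347 and 0.291 in WT1, WT2 and WT4, stood at 0.0941, 0.0955, 0.0242 and 0.0997 in KO1 to KO4, below every WT oocyte. All 12 oocyte marker genes, such as Zp3 and Gdf9, passed the filter, with a summed FPKM of 6805 to 7373 in WT and 4886 to 5297 in KO. Of 18 markers of cumulus and granulosa cells 3 passed it (Fshr, Kitl and Nr5a2), 7 were at 0 in every oocyte (Amh, Foxl2, Tnfaip6, Lhcgr, Gatm, Slc38a3 and Cd44), and their summed FPKM was 4.78 to 7.03 in WT and 13.2 to 17.15 in KO. Of 5 leukocyte markers none passed it and 3 were at 0 (Cd74, Lyz2 and Tyrobp). The oocyte sum and the cumulus and granulosa sum separated the genotypes. The leukocyte sum did not, at 0.404 to 1.515 in WT and 0 to 1.987 in KO. Of the 12 oocyte markers only 3, Gdf9, Bmp15 and Oosp1, had KO values wholly under the WT values. For the other oocyte markers the groups overlapped, so the lower oocyte sum does not describe a shift of all of them. The part of the marker genes in the results below was not tested.

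Of the 51 core histone genes 27 (52.9%) had a value above 0 in at least 1 oocyte, against 48.6% of all genes in the table. By oocyte, the members with a value numbered 14, 13 and 16 in WT1, WT2 and WT4, and 14, 15, 17 and 17 in KO1 to KO4. Across all 7 oocytes 6 members were seen in each, namely Hist1h2aa, Hist1h2ba, Hist1h2bc, Hist1h4c, Hist1h4d and Hist1h4h, and 6 others in 1 oocyte only. A count of 0 allows up to 3 reads, which at the median length of the 24 members at 0 is an FPKM of 0.200 to 0.343 depending on the oocyte. The 24 were 11 H2A, 5 H2B, 4 H3 and 4 H4 genes.

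Core histone transcripts were a small part of each library. The 51 genes held 11646 reads in all, from 814 in WT4 to 2525 in KO2, or 0.00509% to 0.0127% of the reads in genes. Only 4 genes, Hist1h2aa, Hist1h4d, Hist1h2bc and Hist1h2al, held 94.46% of them, and the 7 H3 genes together held 106 reads. The filter on low levels was passed by 6 members (11.8%), against 21.4% of all genes. Transcripts of the replication-independent H3 variant were far more abundant than those of the H3 members, with an FPKM of 56.4 ± 1.45 in WT and 56.4 ± 5.64 in KO for H3f3a and 530.0 ± 87.4 and 653 ± 126 for H3f3b (SD, n = 3 and n = 4), which both encode H3.3. The groups overlapped for both. These mRNAs end in poly(A) tails, from which the kit primes, so the levels compare RNA as captured and not as present in the oocyte.

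**Figure D1:**
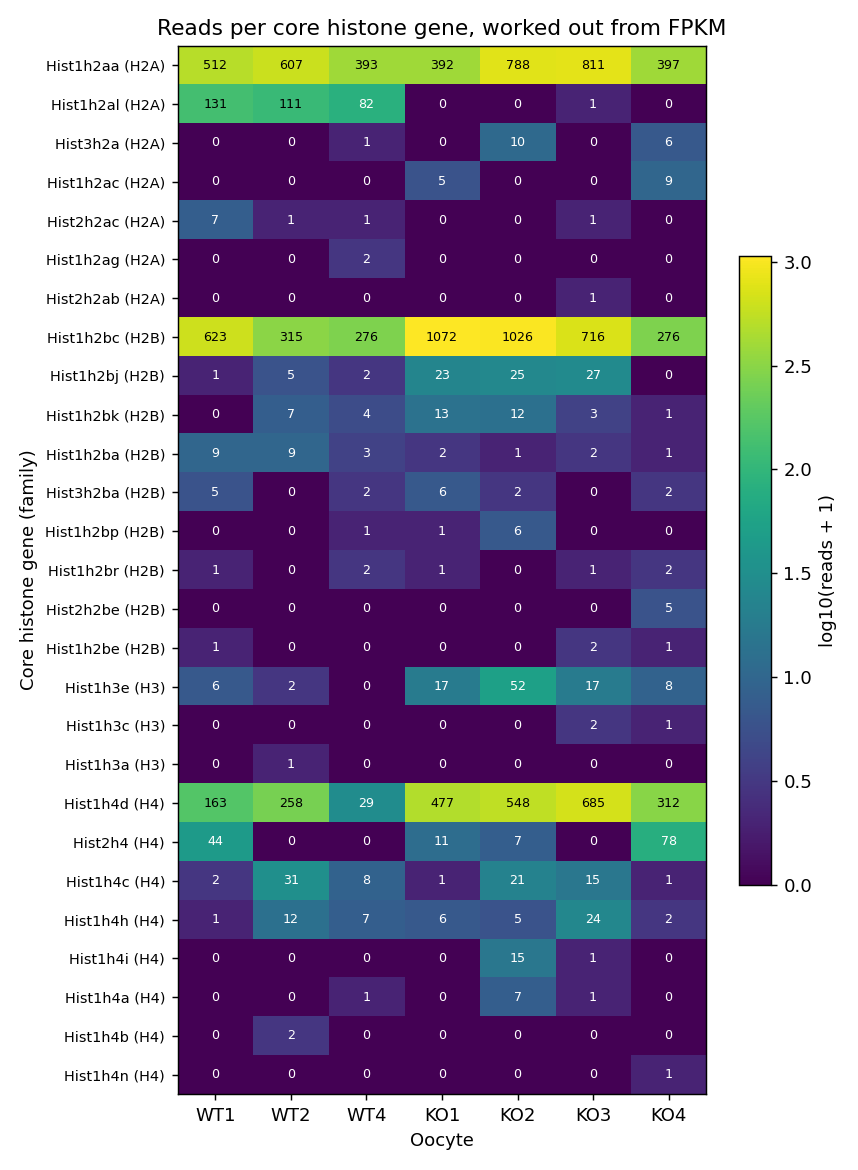
Reads of the 27 core histone genes that had any, 1 row per gene with its family and 1 column per oocyte. Colour gives log10(reads + 1) and each cell prints the reads. Reads concentrate in Hist1h2aa, Hist1h2bc and Hist1h4d in 6 of the 7 oocytes, and in WT4 Hist1h4d has 29 reads against 82 of Hist1h2al, while the Hist1h2al reads lie in the 3 WT oocytes but for 1 read in KO3.

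Among the H2A genes Hist1h2aa, the TH2A gene known from germ cells and oocytes, had the highest mean level of all 51 members. Its FPKM was 64.4 in WT1, 64.8 in WT2 and 55.4 in WT4, and 52.0, 84.9, 66.5 and 39.4 in KO1 to KO4. The KO values lay on both sides of the WT values, with KO2 highest and KO4 lowest. The means were 61.5 ± 5.34 (SD, n = 3) in WT and 60.7 ± 19.6 (SD, n = 4) in KO, a difference of -0.071 in mean log2(FPKM + 1), KO minus WT. Differences below are on this scale, on which the median of all 8033 genes above the filter was 0.18. After median-ratio scaling of the libraries that median was -0.0065 and the difference of Hist1h2aa was -0.31.

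Hist1h2aa shares its promoter with Hist1h2ba, the TH2B gene for a germ cell H2B, which lies head to head with it. The promoter is printed because it is where the pair meets, and because the partners differ so much in level. From 250 bases before the start of Hist1h2aa up to it, RefSeq (GRCm38.p6, plus strand, chr13:23934187-23934436) reads as follows, with the TATA, CCAAT and octamer motifs in capitals.
Hist1h2aa: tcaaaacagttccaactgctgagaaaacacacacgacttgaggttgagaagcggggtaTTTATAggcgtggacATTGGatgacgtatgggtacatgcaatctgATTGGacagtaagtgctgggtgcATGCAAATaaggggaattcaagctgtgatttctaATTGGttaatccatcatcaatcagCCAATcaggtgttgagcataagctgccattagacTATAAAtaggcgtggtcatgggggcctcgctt
The stretch held 1 TATA motif on each strand, 4 CCAAT motifs and 1 octamer, and 220 of the 300 bases of the RefSeq promoter windows of the pair are the same bases.

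Hist1h2ba, named after its values were seen, was far below its partner. Its FPKM was 1.14, 0.963 and 0.424 in WT1, WT2 and WT4 and 0.266, 0.108, 0.164 and 0.0995 in KO1 to KO4, from 9, 9, 3, 2, 1, 2 and 1 reads. All KO values lay below all WT values, a difference of -0.65. The ratio of reads, scaled to the libraries and taken as WT over KO, was 5.61 with a 95% counting interval of 2.19 to 16.97. Counting intervals here cover counting error only, since reads of amplified cDNA are not independent molecules. Hist1h2aa stood at 56.7, 67.3 and 131 times Hist1h2ba in WT1, WT2 and WT4, and at 195, 786, 404 and 396 times in KO1 to KO4. The 2 sets of ratios did not overlap, though each rests on few Hist1h2ba reads.

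Hist1h2al, which the annotation used here lists as a processed pseudogene of H2A, separated the genotypes most widely. It had 131, 111 and 82 reads in WT1, WT2 and WT4, and 0, 0, 1 and 0 reads in KO1 to KO4. That is an FPKM of 17.01, 12.2 and 11.9 in WT and of 0.0846 in KO3 with the other KO oocytes at 0. The gene was therefore present in all 3 WT oocytes and almost unseen in the KO oocytes, a difference of -3.83. The rate ratio, WT over KO, was 519 with a counting interval of 92.5 to 20560, wide because of the single KO read. Of its 50-base words 67.6% occur in another gene that does not overlap it, most of them in Hist2h2aa2 (65.5%), which was at 0 in every oocyte. How reads were divided between such copies is not given in the sources used here, so the gene behind these reads is uncertain. Hist1h2al passed the filter only through the WT oocytes.

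The highest H2A member below the filter was Hist2h2ac, with 7, 1 and 1 reads in WT1, WT2 and WT4 and 0, 0, 1 and 0 in KO1 to KO4. The KO values lay below the WT values without overlap, but the 10 reads in all make this a small basis. Hist1h2ac had 5 reads in KO1 and 9 in KO4 and none elsewhere, with KO2 and KO3 at 0. With reads pooled by genotype and the WT group set at a floor of 3 reads, the KO rate of Hist1h2ac was 2.91-fold higher. The groups overlapped, and the fold comes from KO1 and KO4 only. The counting interval of the pooled rate ratio, KO over WT, starts at 2.07 and does not cover the spread between oocytes. Exons of Hist1h2ac overlap those of Gm24991 on the same strand, so the origin of these reads is uncertain.

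**Figure D2:**
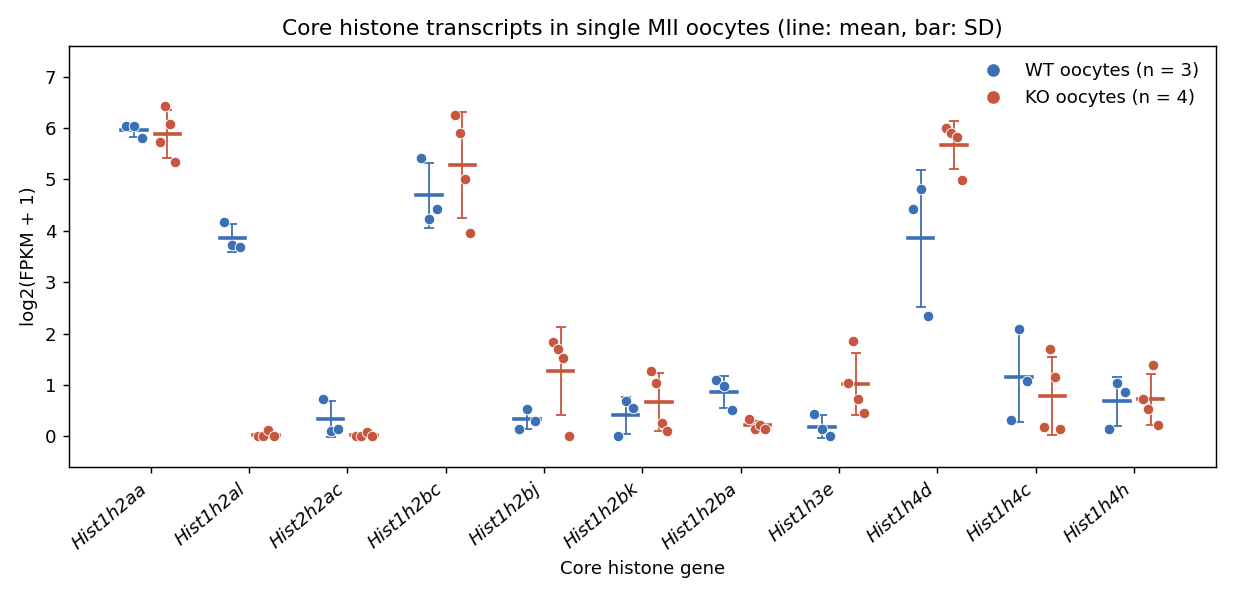
Level of the 6 core histone genes above the filter and 5 below it, as log2(FPKM + 1) on the vertical axis, with 1 point per oocyte (WT blue, KO red), the mean as a line and the SD as a bar. The KO points of Hist1h4d and Hist1h3e lie above all WT points, and those of Hist1h2al, Hist2h2ac and Hist1h2ba below them.

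Among the H2B genes Hist1h2bc was the only abundant member. Its FPKM was 41.5, 17.8 and 20.6 in WT1, WT2 and WT4 and 75.4, 58.6, 31.1 and 14.5 in KO1 to KO4. KO1 and KO2 were above every WT oocyte, KO3 was below WT1, and KO4 was the lowest of all 7, so the groups overlapped. The means were 26.7 ± 12.97 in WT and 44.9 ± 27.3 in KO (SD, n = 3 and n = 4), a difference of 0.585, which is just past 1.5-fold. It was 0.35 after median-ratio scaling and 0.49 after quantile normalisation, both under that limit, and either scaling left 2 members over 1.5-fold higher in place of 3. The difference was 0.26 without KO1, 0.38 without KO2 and 1.03 without KO4.

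Hist1h2bj was rare. It had 1, 5 and 2 reads in WT1, WT2 and WT4 and 23, 25, 27 and 0 in KO1 to KO4. In KO1, KO2 and KO3 it was above every WT oocyte, and in KO4 it was not seen. The difference was 0.94, with a rate ratio, KO over WT, of 5.86 and a counting interval of 2.82 to 14.1. It passed the filter only through these KO oocytes, and 59.4% of its 50-base words occur in other genes. Hist1h2bk, the next H2B gene by level, had 0, 7 and 4 reads in WT and 13, 12, 3 and 1 in KO, and the groups overlapped.

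The partners of these H2B genes mostly had few or no reads. The annotation holds 14 pairs of an H2A and an H2B gene that lie head to head, and both members of 9 pairs were in the table. Both had reads in 4 pairs, the H2B gene alone in 2, the H2A gene alone in 1 and neither in 2. Hist1h2bc had 4304 reads over all oocytes and its neighbour Hist1h2ac 14. Hist1h2bj had 83 and Hist1h2ag 2, Hist1h2bk had 40 and Hist1h2ah none, and Hist2h2ac had 10 and Hist2h2be 5. The H2A gene led widely in the germ cell pair, with 3900 reads of Hist1h2aa against 27 of Hist1h2ba, and Hist3h2a had 17 reads against none of the pseudogene Hist3h2bb-ps.

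H3 was barely seen. Of 7 H3 genes 3 had reads, and Hist1h3e held nearly all of them. It had 6, 2 and 0 reads in WT1, WT2 and WT4 and 17, 52, 17 and 8 in KO1 to KO4, an FPKM of 0.352, 0.0996 and 0 in WT and 1.05, 2.61, 0.650 and 0.370 in KO. All KO values lay above all WT values, with KO4 and WT1 nearly level, and the difference was 0.83. The rate ratio, KO over WT, was 7.34 with a counting interval of 3.58 to 17.5. Hist1h3e lay below the filter, and 73.4% of its 50-base words occur in other genes, 63.2% in Hist1h3f. Hist1h3c had 2 reads in KO3 and 1 in KO4, and Hist1h3a had at least 1 read in WT2. The recovered length of Hist1h3a was 178 bases against 534 annotated, so its count may be too low by a whole factor.

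Among the H4 genes Hist1h4d held most reads. Its FPKM was 20.4 in WT1, 27.3 in WT2 and 4.05 in WT4, and 62.8, 58.6, 55.7 and 30.7 in KO1 to KO4. All KO oocytes exceeded all WT oocytes, with KO4 close above WT2, and WT4 stood far below the other WT oocytes. The means were 17.2 ± 11.9 (SD, n = 3) in WT and 52.0 ± 14.5 (SD, n = 4) in KO, 3.01-fold higher in KO and a difference of 1.82. It stayed at 1.58 after median-ratio scaling and at 1.70 after quantile normalisation. Without WT4 it was 1.06. The reads were 163, 258 and 29 in WT and 477, 548, 685 and 312 in KO. Of the 50-base words of its annotated transcript of 1138 bases 10.2% occur elsewhere, but the length recovered from the authors' values was 393 bases, and the share within those was not computed.

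The 250 bases before the start of Hist1h4d, the member with the largest difference in this direction, are printed for comparison with the germ cell pair (RefSeq, GRCm38.p6, plus strand, chr13:23581318-23581567), motifs in capitals.
Hist1h4d: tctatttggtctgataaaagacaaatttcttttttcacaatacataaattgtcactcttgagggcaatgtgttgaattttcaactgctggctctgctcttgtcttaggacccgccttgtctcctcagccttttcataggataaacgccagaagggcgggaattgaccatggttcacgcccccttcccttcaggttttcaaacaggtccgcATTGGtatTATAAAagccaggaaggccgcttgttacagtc
It held 1 CCAAT motif next to 1 TATA motif and no octamer. Motifs were searched on both strands, as TATAAA or TTTATA for the TATA motif, as CCAAT or ATTGG for the CCAAT motif, and as ATTTGCAT or ATGCAAAT for the octamer. No matches overlapped in the printed stretches. In 56 RefSeq promoter windows of the 64 genes, each from 250 bases before to 50 after the start, TATA was found in 55.4%, CCAAT in 83.9% and the octamer in 25% (14 windows). Hist1h2be had more than 1 window, and some genes, such as Hist1h2bc, had none. Windows of head to head partners can overlap, by 220 bases for Hist1h2aa and Hist1h2ba, so the same motif can count for both partners. In all 32851 windows of the same length the shares were 13.6%, 37.4% and 1.74%. A match describes the letters only.

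Other H4 genes did not follow Hist1h4d. Hist1h4c had 2, 31 and 8 reads in WT1, WT2 and WT4 and 1, 21, 15 and 1 in KO1 to KO4. Its values ranged widely within each genotype and overlapped, with a difference of -0.38 that became 0.088 without WT2. Hist1h4h had 1, 12 and 7 reads in WT and 6, 5, 24 and 2 in KO, again overlapping. Hist2h4 was patchy, with 44 reads in WT1 and none in WT2 and WT4, and 11, 7, 0 and 78 in KO1 to KO4. Hist1h4i had 15 reads in KO2, 1 in KO3 and none elsewhere, so it was seen mainly in 1 oocyte. With reads pooled by genotype and the WT group set at a floor of 3 reads, the KO rate of Hist1h4i was 3.33-fold higher. That fold comes almost wholly from KO2, and the groups overlapped. The counting interval of its pooled rate ratio, KO over WT, starts at 2.41 and does not cover the spread between oocytes.

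Summed by family, H4 and H3 were higher in every KO oocyte than in any WT oocyte, and H2A and H2B overlapped. Summed H4 FPKM was 22.1, 31.8 and 6.09 in WT1, WT2 and WT4 and 64.0, 63.2, 58.7 and 33.0 in KO1 to KO4, with means of 19.99 ± 12.995 and 54.7 ± 14.6 (SD, n = 3 and n = 4) and a difference of 1.62. Without WT4 the difference was 0.97. Hist1h4d made up 66.6% to 98.2% of this sum, so the family follows that gene. Summed H3 FPKM was 0.229 ± 0.198 in WT and 1.21 ± 0.967 in KO, a difference of 0.77 that was 0.50 without KO2. This sum rests on 6, 3 and 0 reads in WT1, WT2 and WT4 and 17, 52, 19 and 9 in KO1 to KO4. Most are reads of Hist1h3e, which lay below the filter, and KO4 (0.432) was close above WT1 (0.352). Summed H2A FPKM was 75.6 ± 7.34 in WT and 60.9 ± 19.6 in KO, a difference of -0.36. Hist1h2aa made up 78.5% to 99.8% of the level but had nearly equal means (61.5 and 60.7), whereas Hist1h2al, whose reads are of uncertain origin, had means of 13.7 in WT and 0.0212 in KO. The difference for H2A was -0.17 without KO4. Summed H2B FPKM was 28.3 ± 12.9 in WT and 47.7 ± 29.2 in KO, a difference of 0.57 that ranged from 0.24 without KO1 to 1.02 without KO4. Over all 51 genes the sum was 124 ± 26.4 in WT and 165 ± 55.7 in KO, and the groups overlapped, a difference of 0.35 that became 0.11 after median-ratio scaling and was 0.17 without WT4 and 0.62 without KO4.

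**Figure D3:**
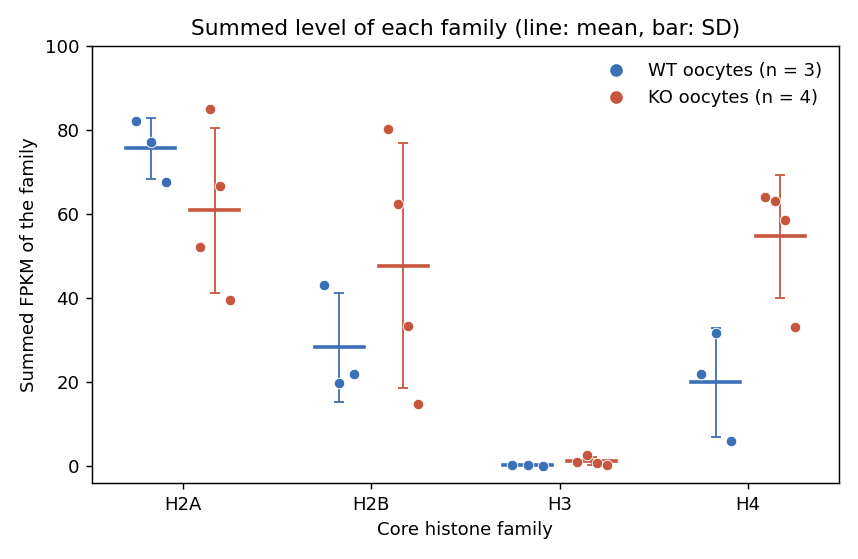
Summed FPKM of each core histone family on a linear axis, 1 point per oocyte (WT blue, KO red), with the mean as a line and the SD as a bar. The H4 points of the KO oocytes, 33.0 to 64.0, lie above the WT points, 6.09 to 31.8, while H2A and H2B overlap.

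Counted over the members, 3 of the 6 above the filter were over 1.5-fold higher in KO (Hist1h4d, Hist1h2bj and Hist1h2bc), against 22.6% of the 8033 genes above the filter. A single member, Hist1h2al, was over 1.5-fold lower, against 7.92% of those genes, and Hist1h2aa and Hist1h4c were within 1.5-fold. The median difference of the 6 was 0.26, against 0.18 over all genes. These 6 include Hist1h2al and Hist1h2bj, each of which passed the filter through 1 genotype, so neither count supports a shift of the members. Of the 27 members with a value, 2 (7.41%) had all KO oocytes above all WT oocytes, against 11.9% of the 18300 genes with a value, and 3 (11.1%) had every KO oocyte below, against 4.92%. For the other 22 members the groups overlapped.

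Because the genes are close copies, the share of each gene's 50-base words that also occur in another gene was counted from the reference transcripts. Genes whose exons overlap those of the member, on either strand, were left out of the count. Hist1h2aa and Hist1h2al, among others, have such overlaps. The recovered lengths matched the annotated ones in 9 of 27 members, so the shares describe the annotated transcripts and not always the part the authors counted. The median share was 38.6% for the 27 genes with a value (0 to 88.7%), 66.4% for the 24 genes at 0 (24.6% to 100%), and 25.1% for the 6 above the filter. More than 50% was shared in 8 of the 27, 17 of the 24 and 2 of the 6. In the 3 most abundant genes the share was 2.35% in Hist1h2aa, 10.2% in Hist1h4d and 30.6% in Hist1h2bc. A gene at 0 with a high share may have lost reads to its copies or may not have been transcribed, and these cannot be told apart here.

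**Figure D4:**
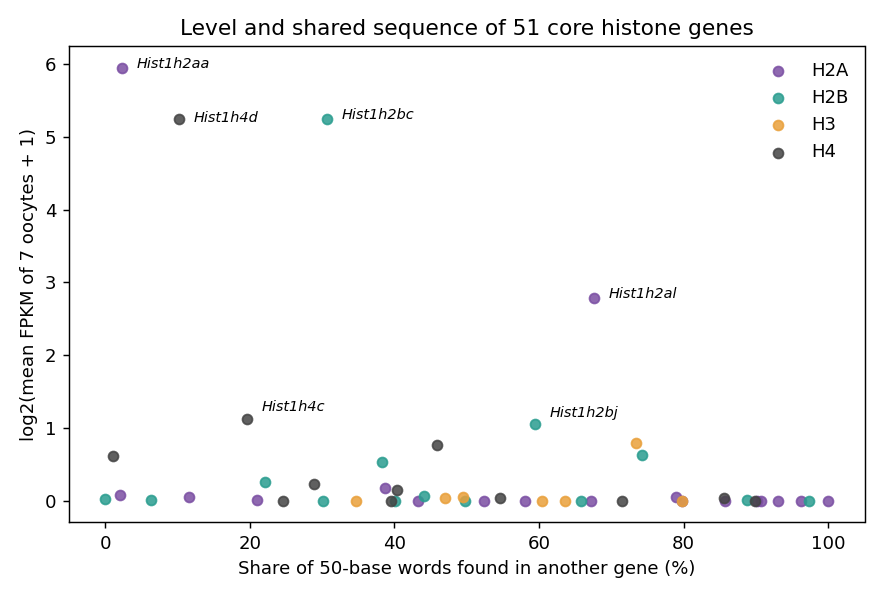
Each point is 1 of the 51 core histone genes, coloured by family. The horizontal axis is the share of its 50-base words found in another gene, with genes that overlap it left out. The vertical axis is log2(mean FPKM of the 7 oocytes + 1). The named points are the 6 genes above the filter, and the 3 highest lie at shares of 2.35% to 30.6%.

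Genes that serve histone mRNA were examined as a list of 31, covering the hairpin and its cleavage machinery, histone transcription, the cell cycle signal for it, and decay of the mRNA. Above the filter were 25, of which 7 were over 1.5-fold higher in KO, against 22.6% of all genes above the filter, and 0 lower, against 7.92%, with a median difference of 0.16 against 0.18 for all genes. After median-ratio scaling the median of the list was -0.036, against -0.0065 for all genes. Slbp was abundant in every oocyte, with an FPKM of 359, 386 and 305 in WT1, WT2 and WT4 and 422, 415, 533 and 529 in KO1 to KO4. All KO oocytes were above all WT oocytes, a difference of 0.43 that was 0.19 after median-ratio scaling and 0.69 after quantile normalisation.

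The U7 particle, which directs the cut after the hairpin, has its own ring proteins. Lsm10 had a mean FPKM of 13.5 ± 3.26 in WT and 9.42 ± 2.48 in KO (SD, n = 3 and n = 4), a difference of -0.49 that reached -0.71 after median-ratio scaling, and the groups overlapped. Lsm11 stood at 2.18, 0.444 and 1.19 in WT1, WT2 and WT4 and at 3.04, 2.92, 0.832 and 3.19 in KO1 to KO4, a difference of 0.62, with KO3 among the WT values. Zfp473, a zinc finger protein of the same step, was 0.874 ± 0.238 in WT and 2.01 ± 0.897 in KO, a difference of 0.64, with the lowest KO oocyte level with the highest WT oocyte.

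The coactivator Npat, which carries the cyclin E signal to histone promoters, differed little (6.13 ± 2.06 in WT and 6.97 ± 1.73 in KO, a difference of 0.18). Casp8ap2, found with Npat at histone loci, was at 89.8 ± 8.79 in WT and 92.9 ± 10.7 in KO, a difference of 0.045 that was -0.20 after median-ratio scaling. Ccne2, which encodes a cyclin E, had the largest difference of the list. It was at 5.15, 4.33 and 4.13 in WT1, WT2 and WT4 and at 12.4, 14.3, 15.3 and 19.1 in KO1 to KO4, with no overlap and a difference of 1.54.

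On the decay side, Tut7 (Zcchc6), an enzyme that adds uridines to RNA ends, had an FPKM of 4.12 ± 1.34 in WT and 11.1 ± 3.11 in KO, a difference of 1.24 with no overlap. Eri1, an exonuclease that trims the histone mRNA end, was at 1.25 ± 0.865 in WT and 2.005 ± 0.215 in KO, a difference of 0.48 with overlapping groups. Genes that make or lengthen poly(A) tails, a list of 17, had 12 above the filter, 2 over 1.5-fold higher (22.6% of all genes above the filter), 1 lower (7.92%) and a median difference of 0.16. Within it Nudt21, a cleavage factor, was higher by 1.18 and the poly(A) polymerase Papolg was lower, with a difference of -0.69.

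**Figure D5:**
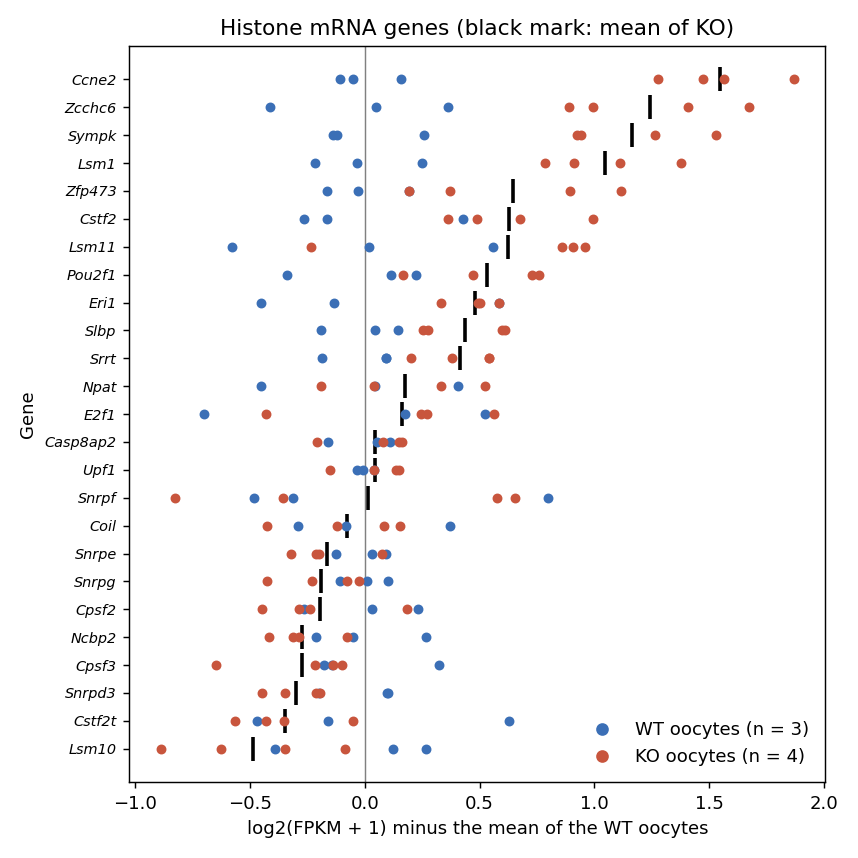
The 25 genes of the histone mRNA list above the filter, ordered by difference. The horizontal axis is log2(FPKM + 1) of each oocyte minus the mean of the WT oocytes (WT blue, KO red) and the black mark is the KO mean. Ccne2, at 1.54, and Zcchc6, at 1.24, stand furthest to the right and Lsm10, at -0.49, furthest to the left.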

How the data were processed

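RNA was measured in 7 single MII oocytes (3 WT, 4 KO). Per the labels' protocols, cDNA was made and amplified on each whole oocyte with the SMARTer Ultra Low Input kit, fragmented, made into libraries and sequenced on a HiSeq instrument. The authors deposited FPKM values, not logged, for 37620 Ensembl genes. The submitters' processing notes name the mm9 build and, as tools, edgeR 3.1.10, HTSeq, TopHat, TopHat2 2.0.2, Bowtie2 and Bowtie 0.12.8. Which step each served, the treatment of reads that match several genes and the use of strand are not given in the sources used here. Without strand, reads of a gene and of its antisense partner cannot be told apart. The annotation has such partners for every H2A member, Hist1h2aa and Hist1h2al among them, and for Hist1h4b and Hist2h3b.

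Symbols, transcripts and shared 50-base words came from a later reference annotation, which named 87.4% of the identifiers, and promoters from RefSeq. Reads per gene were worked out as the smallest whole numbers that give all FPKM values of a gene, within 2e-05 reads. A factor shared by all libraries would be missed. This may have happened for Hist1h3a and Hist1h4n, with recovered lengths of 178 and 215 bases against 534 and 430 annotated. Reads in genes were 15403727 to 26045572, which is 82.5% to 85.5% of the recovered divisor of each library. Intervals are exact at 95%.

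Differences are of mean log2(FPKM + 1), KO minus WT, for genes whose FPKM was 1 or more in 3 or more libraries. The limit was 1.5-fold. Alternatives were pseudocounts of 0.1 and 5, a filter of 10 and none, median-ratio scaling, quantile normalisation, and leaving out each oocyte. Named genes were every member above the filter, the highest member below it per family, 7 fixed genes of the histone mRNA list and the 2 further ones with the largest difference. Hist1h2ba, Hist1h2ac, Hist1h2ag, Hist1h2ah, Hist2h2be, Hist3h2a, Hist3h2bb-ps, Hist2h4, Hist1h4i, Hist1h3c, Hist1h3a, Nudt21, Papolg, H3f3a and H3f3b were added after their values were seen. The members and lists were chosen with earlier results of these data known. The procedures were tested on simulated data. Python 3.11.15, numpy 2.4.6, pandas 2.3.3, scipy 1.17.1 and matplotlib 3.10.9 were used.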

Additional observations from a re-analysis of the deposited data

Results flagged for a closer look

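In 25 groups of 4 KO oocytes, 4 had a highest or lowest oocyte standing apart from the others, by a gap that took up most of the range of the group (Dixon's test). Chance flags about 1 in 20 groups. Hist1h2al had an FPKM of 0.0846 in KO3 with the other KO oocytes at 0, and Hist2h2ac had 0.0615 in KO3 with the others at 0, each from 1 read. With 3 values at 0 any read in the fourth oocyte is marked, so these 2 cases say nothing about chance. Lsm11 was low in KO3, at 0.832 against 2.92 to 3.19 in the other KO oocytes. The summed H4 FPKM was low in KO4, at 33.0 against 58.7 to 64.0 in the others.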

How the results depend on the processing

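The directions of the summed H2A, H2B, H3, H4 and total differences held with either other pseudocount, under both scalings and with any 1 oocyte left out, and the filter does not enter these sums. Leaving out 1 oocyte at a time gave -0.54 to -0.17 for H2A, 0.24 to 1.02 for H2B, 0.50 to 0.95 for H3, 0.97 to 2.08 for H4 and 0.17 to 0.62 for the total. The H3 difference was 2.02 with a pseudocount of 0.1 and 0.24 with 5. The number of members over 1.5-fold higher was 1 with a pseudocount of 5 and 1 to 3 with an oocyte left out, being 1 without KO1 and without KO2, when Hist1h2bj has too few libraries for the filter and Hist1h2bc falls under the limit. The number lower was 2 after quantile normalisation, with a pseudocount of 0.1 and with no filter, and 0 to 2 with an oocyte left out. Hist1h2al fails the filter without any 1 of the WT oocytes, and the number was 0 without WT2 or WT4 and 1 without WT1, when Hist1h4c reaches -0.80. It was 2 without KO2. The median of the members ranged from -0.25 to 0.84, so it has no stable sign. For the histone mRNA list, the number higher was 4 after median-ratio scaling, 5 after quantile normalisation, 3 with a pseudocount of 5 and 2 with a filter of 10. It was 10 with a pseudocount of 0.1, 8 with no filter and 5 to 8 with an oocyte left out. The number lower was 1 after median-ratio scaling and after quantile normalisation, and 0 to 1 with an oocyte left out. The median of the list was -0.036 after median-ratio scaling, -0.075 with a filter of 10, and 0.039 to 0.41 with an oocyte left out. Except where named, the cause of these shifts was not tested. No paired analysis was possible because no test was made and the shared oocyte numbers name no animal. Outside the 4 genes that held 94.46% of the member reads, values rest on few reads.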
